A study of Mus musculus with 8 samples.

Results

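Of the 2513 Ebf2-EGFP+ barcodes with at most 25000 UMIs (unique molecular identifiers, so 1 UMI is 1 transcript molecule read), 273 were taken as Cajal-Retzius (CR) neurons, because they held at least 5 UMIs of Reln and at least 2 of Nhlh2 per 10000. The cells described here are the 93 of these 273 barcodes in which Rspo3, Cdkn1a and Serpine2 together reached at least 4 UMIs per 10000. They made up 34.1% of the CR barcodes (exact Clopper-Pearson interval 28.5 to 40.0%). The other 180 CR barcodes, below 4, were the comparison, and 2240 further barcodes outside the CR gate gave a background. The whole matrix held 3000 distinct barcodes, which is about the number of cells that the study's methods state, and 487 of them lay above the limit of 25000 UMIs.

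All cells were taken at E15.5 from cerebral cortex of mouse embryos of the strain Tg(Ebf2-EGFP)FB58Gsat, several of which were pooled, and were sorted for EGFP, with no treatment and no second genotype. EGFP in this line is driven by a bacterial artificial chromosome with Ebf2 regulatory sequence, so it reports on that transgene and not on the Ebf2 protein. The labels list 8 samples of 1 group, but they share 1 matrix with no map from barcodes to embryos, so the data were 1 pooled library. No test between samples was therefore possible. Intervals are 95% and cover counting error only, and a gene counted as higher or lower when its ratio passed 1.5-fold. EGFP transcripts were not analysed here.

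CR neurons are early-born glutamatergic neurons that settle in layer 1 of the cortex and secrete Reelin, the product of Reln, which guides the positioning of later-born neurons. They arise at the edges of the pallium, in the cortical hem, the septum and the ventral pallium, migrate over the cortical surface, and most of them later die. Trp73, a member of the p53 family, is among their best known markers and is needed for their survival. Rspo3 encodes an R-spondin, a secreted protein that strengthens Wnt signalling by keeping Wnt receptors on the cell surface, and it is known from the cortical hem. Cdkn1a encodes p21, an inhibitor of cyclin-dependent kinases and a classical target of p53-family factors. Serpine2 encodes a secreted inhibitor of thrombin and related serine proteases.

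Of the rule genes, Cdkn1a is the one whose promoter is best known as a target of the p53 family, and its sequence is shown for that reason. Cdkn1a (ENSMUSG00000023067) lies on chromosome 17 from 29090976 to 29100727 on the plus strand of GRCm38. RefSeq (GRCm38.p6) gave windows of 300 bases at 2 of its starts, each holding 250 bases before the start and 50 after it. The upstream window, chr17:29090729-29091028 on the plus strand, is printed 5′ to 3′, with the stretch that matched the p53-family response element in capitals.
Cdkn1a upstream start: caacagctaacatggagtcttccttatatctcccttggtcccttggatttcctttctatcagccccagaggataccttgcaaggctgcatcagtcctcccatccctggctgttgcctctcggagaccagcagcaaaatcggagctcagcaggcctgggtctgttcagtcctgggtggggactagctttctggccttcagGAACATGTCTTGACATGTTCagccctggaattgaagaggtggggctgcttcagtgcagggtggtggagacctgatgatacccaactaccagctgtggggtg
The match began at position 200 of the window and had 1 mismatch to the 20-base element, a pair of half-sites with no spacer, searched on both strands. Such a match, with at most 1 mismatch and the central C and G of each half-site kept, was found in 22 of 32851 promoter windows of the genome (0.067%). The second Cdkn1a window, chr17:29093519-29093818, held none. No match was found in the windows of the 9 of 15 highest and 13 of 15 lowest genes named below that had one. In the p53 list described below, 25 of 34 genes had a window, and Ccng1 and Gtse1 held a match. A match is a run of letters and does not show binding.

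The summed level of Rspo3, Cdkn1a and Serpine2 formed a continuous range with no gap at the limit. It was 0 in 45 CR barcodes, had a median of 0.978 per 10000 in the CR barcodes below 4 and of 7.31 in the 93 above, and reached 37.1. The barcodes just inside had 4.02, 4.02 and 4.03 per 10000, and those just outside 3.95, 3.86 and 3.82. In all, 42 CR barcodes lay between 3 and 5 per 10000, of which 20 were inside. The set is thus a range of a score, and whether it holds a separate cell type was not tested. The other barcodes had a median of 0.813.

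**Figure D1:**
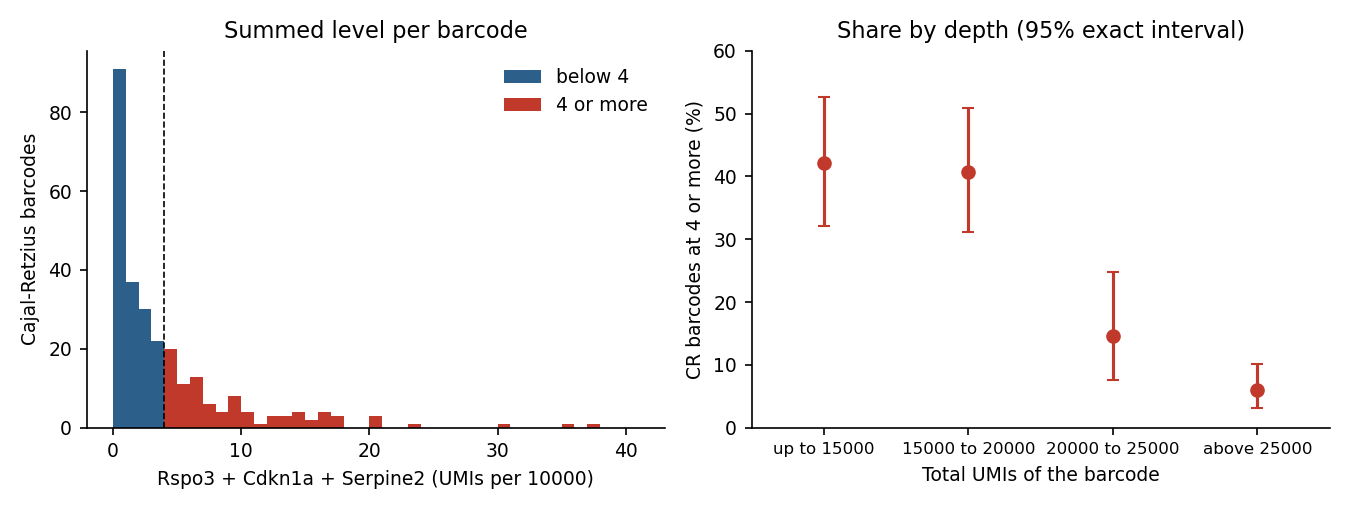
Left, number of CR barcodes (y axis) by the summed level of Rspo3, Cdkn1a and Serpine2 (x axis, UMIs per 10000), with blue bars below the limit of 4 and red bars at or above it. Right, share of CR barcodes at or above 4 (y axis, percent, with exact 95% intervals) by total UMIs of the barcode (x axis). The histogram has no gap at 4, and the share is 42.1% in the shallowest and 5.94% in the deepest class.

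Rspo3 was the main contributor to the choice. It was the highest of the 3 genes in 74 of the 93 members, Cdkn1a in 18 and Serpine2 in 1. Rspo3 alone reached 2 per 10000 in 87 members, Cdkn1a in 44 and Serpine2 in 24. A single gene reached that level in 44 members, 2 genes in 36 and all 3 in 13. UMIs of all 3 genes were present in 49 of 93 members and in 11 of 180 CR barcodes below 4.

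The values that chose the members are given as a description. Rspo3 (chromosome 10, 29452416 to 29535867, minus strand) ran from 0 through a median of 5.07 to 13.6 UMIs per 10000 in the members, and from 0 through 0.428 to 3.65 in the CR barcodes below 4. Its summed level was 545 CPM (UMIs of the gene when all those in a set are scaled to 1000000) against 73.2, and 98.0 in the other barcodes. Cdkn1a had 238 CPM against 40.9, with 11.4 in the other barcodes. Serpine2 (chromosome 1, 79794197 to 79861180, minus strand) had 132 CPM against 17.4, with 17.7 in the others. Reln had 1896 CPM in members and 2124 below 4, and Nhlh2 had 1554 and 1129.7, so both gate genes were high on either side of the limit. Across the 273 CR barcodes, each thinned to 10000 UMIs, the rank correlation (Spearman) was 0.34 between Rspo3 and Cdkn1a, 0.39 between Rspo3 and Serpine2 and 0.34 between Cdkn1a and Serpine2. These barcodes share 1 library, and the correlations are descriptions only.

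Of the 18 listed CR identity genes, none of which the rule used, all but Spock1 and Ackr3 had a higher level in both CR sets than in the other barcodes. Spock1 had 20.8 CPM in members and 21.4 below 4 against 78.3, and Ackr3 had 1.34 and 2.48 against 7.13. Trp73 (chromosome 4, 154056253 to 154140208, minus strand) had 175 CPM in members and 171 in the CR barcodes below 4, against 5.65 in the other barcodes. The log2 ratio of the first to the second was 0.04 (-0.18 to 0.25). Lhx5, a LIM homeobox factor of CR neurons and their precursors, had 229 and 265 CPM against 10.3. The calcium channel subunit gene Cacna2d2 had 214 and 216 CPM against 9.24, and the homeobox gene Emx2 had 330.0 and 305 against 25.1. After thinning to 10000 UMIs, a Trp73 UMI was found in 84.9% of members, 78.3% of the CR barcodes below 4 and 4.51% of the other barcodes.

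Members were not deeper than the barcodes they were compared with. Their median total was 15985 UMIs, against 18192 below 4 and 14822 in the other barcodes, and their summed totals were 1487723, 3224816 and 34516984 UMIs. At 10000 UMIs the median number of genes detected was 3455 in members and 3427 below 4. The median mitochondrial share was 2.63% and 2.48%, so neither measure set the sets far apart. The share of CR barcodes at or above the limit was lower in deeper barcodes. It was 42.1% (40 of 95) up to 15000 UMIs, 40.8% (42 of 103) from 15000 to 20000, 14.7% (11 of 75) from 20000 to 25000, and 5.94% (12 of 202) above 25000. The part of depth in the differences below was not tested beyond the values after thinning and in the deepest barcodes. In the doublet scores 1 member and 7 of the CR barcodes below 4 were in the upper 5%.

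Of 5875 genes with at least 100 UMIs over both sets, leaving out the 5 rule genes, 213 (3.63%) were at least 1.5-fold higher in members and 250 (4.26%) at least 1.5-fold lower. At 2-fold the counts were 42 (0.715%) and 69 (1.17%). The median log2 ratio over all tested genes was -0.006.

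**Figure D2:**
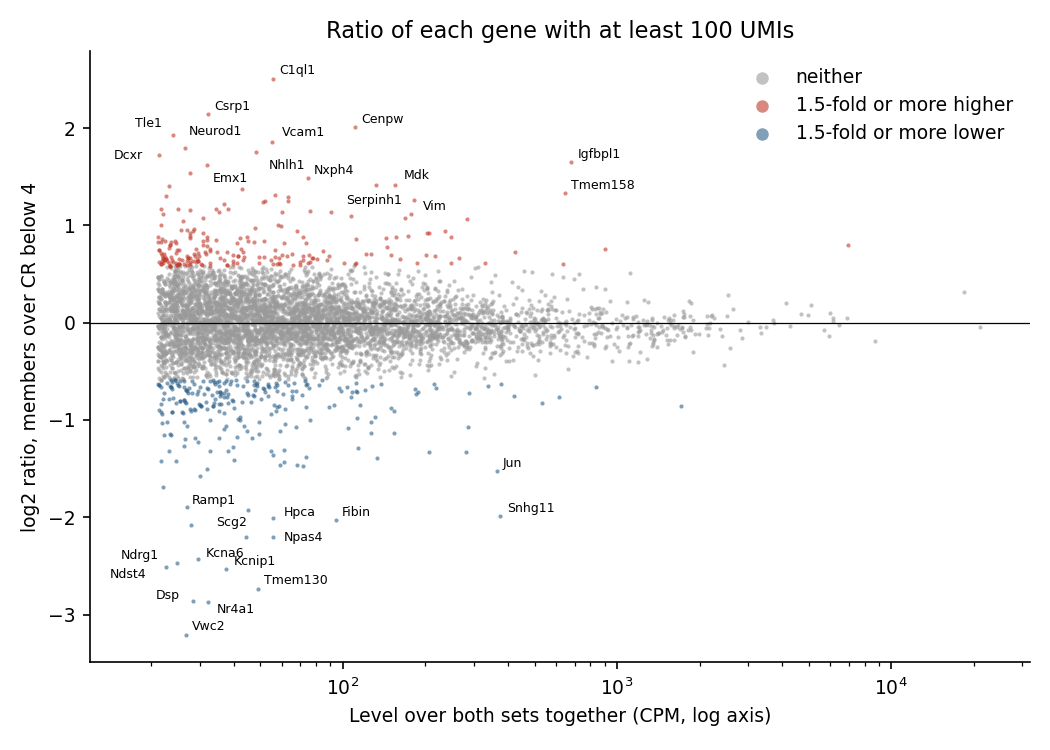
Log2 ratio of members over CR barcodes below 4 (y axis) against the level over both sets together (x axis, CPM, log scale) for each of the 5875 tested genes. Red and blue points are genes at least 1.5-fold higher and lower, and the 15 highest and 15 lowest genes by the naming rule carry their names, from C1ql1 at 2.51 to Vwc2 at -3.21.

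C1ql1 (chromosome 11, 102939264 to 102946688, minus strand), which encodes a secreted C1q-like protein known to organise synapses in the cerebellum, headed the higher genes. It ran from 0 through a median of 0.893 to 7.25 UMIs per 10000 in members, and from 0 through 0 to 3.41 below 4. The 2 sets overlapped in single barcodes, but the level was 127 CPM (110 to 146) against 22.3 (17.5 to 28.1), a log2 ratio of 2.51 (2.11 to 2.92). In the other barcodes it was 1.71 CPM. Igfbpl1 (chromosome 4, 45809468 to 45826923, minus strand), a gene of newborn and growing neurons, was the most abundant of the 15. Every member held it, from 0.672 through a median of 12.4 to 39.0 per 10000, whereas the CR barcodes below 4 ran from 0 through 2.45 to 27.1. Its level was 1276 CPM against 407, a log2 ratio of 1.65 (1.54 to 1.75), and the other barcodes had 931. Igfbpl1 was thus lower in the CR barcodes below 4 than in either of the other sets.

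Tmem158, a transmembrane protein gene, had 1098 CPM in members and 435 below 4 (log2 1.33). The other highest genes encoded the growth factor midkine (Mdk, 271 against 102 CPM), the collagen chaperone Serpinh1 (229.9 against 86.2), the adhesion molecule Vcam1 (109 against 30.1), the LIM-domain protein Csrp1 (log2 2.14, 1.64 to 2.66), the neurexophilin Nxph4 (133 against 47.4), the centromere protein Cenpw (228 against 56.7), the intermediate filament protein Vim (303 against 127) and the xylulose reductase Dcxr (41.0 against 12.4). The last 4 were transcription regulators. Nhlh1, the close relative of Nhlh2, had 92.8 CPM against 27.6 (log2 1.75, 1.35 to 2.15), the corepressor Tle1 48.4 against 12.7, Neurod1 51.8 against 14.9 and Emx1 59.2 against 19.2. C1ql1, Csrp1 and Vcam1 were at 1.71 to 2.14 CPM in the other barcodes, whereas Neurod1 and Emx1 were higher there, at 83.0 and 76.4, than in either CR set.

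Snhg11 (chromosome 2, 158375638 to 158386145, plus strand), a host gene of small nucleolar RNAs that is abundant in mature neurons, was the most abundant of the 15 lowest genes over both CR sets. A UMI of it was found in 46 of 93 members and 159 of 180 CR barcodes below 4. It ran from 0 through a median of 0 to 10.6 per 10000 in members and from 0 through 3.55 to 28.5 below 4. Its level was 124 CPM (106 to 143) against 492 (468 to 516), a log2 ratio of -1.99 (-2.22 to -1.77), with 66.7 in the other barcodes. Jun came next in level, with 159 against 458 CPM, and the activity-regulated factors Npas4 (16.1 against 74.1) and Nr4a1 (6.05 against 44.3) belong with it.

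The further lowest genes encoded the potassium channel subunit Kcna6 (7.39 against 39.7 CPM) and the channel-interacting protein Kcnip1 (8.74 against 50.5), the calcium sensor hippocalcin (Hpca, 18.1 against 73.2), secretogranin II (Scg2, 12.8 against 58.6), the calcitonin receptor partner Ramp1 (log2 -1.92) and the BMP antagonist Vwc2 (4.03 against 37.2). Also among them were desmoplakin (Dsp, 5.38 against 39.1), the heparan sulfate enzyme Ndst4 (5.38 against 30.7), Fibin (30.2 against 123), Tmem130 (10.1 against 67.0) and Ndrg1 (6.05 against 33.5). Vwc2 and Dsp rested on 6 and 8 UMIs in members, so their log2 ratios of -3.21 (-4.68 to -2.04) and -2.86 (-4.10 to -1.84) were wide. Fibin, Dsp and Ndst4 were at 1.48 to 2.26 CPM in the other barcodes, so among the 3 sets they were highest in the CR barcodes below 4.

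Shares of single barcodes were also taken, with each barcode thinned to 10000 UMIs. C1ql1, Nhlh1, Snhg11, Kcna6 and Dsp had been picked on these same barcodes. The choice used their ratio and the share of barcodes of the higher set that held them. A gap in their shares was thus largely set by that choice, and the values are a description only. A C1ql1 UMI was found in 57.0% of members (46.3 to 67.2%), 16.7% of CR barcodes below 4 (11.5 to 22.9%) and 1.16% of other barcodes. For Nhlh1 they were 48 of 93 members, 36 of 180 CR barcodes below 4 and 3.66% of the others, and for Snhg11 34.4%, 82.2% and 13.5%. Kcna6 was found in 3.23%, 30.6% and 10.3% of them, and Dsp in 4.30%, 30.6% and 1.34%.

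**Figure D3:**
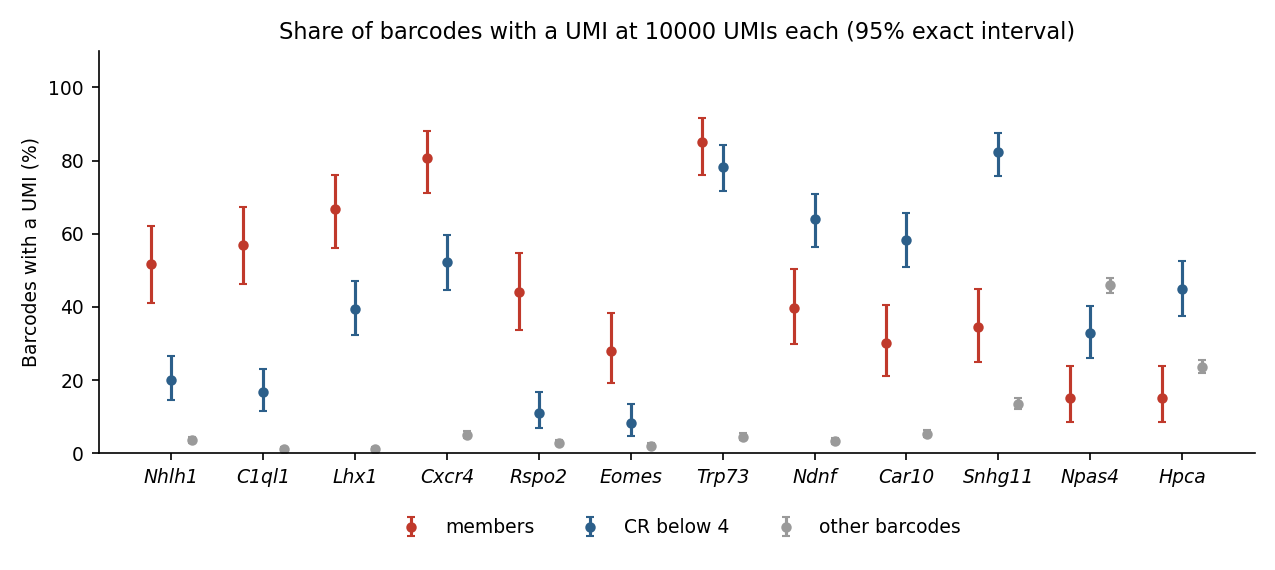
Share of barcodes with at least 1 UMI (y axis, percent) of 12 genes after thinning each barcode to 10000 UMIs, in the 93 members (red), the 180 CR barcodes below 4 (blue) and the 2240 other barcodes (grey), with exact 95% intervals. Intervals of members and of CR barcodes below 4 overlap for Trp73 (84.9% and 78.3%), while for Snhg11 the shares are 34.4% and 82.2%.

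The lists that follow were chosen with earlier results of these data known, and they are described by counts and medians without a set test. For each list, the shares over all 5875 tested genes were 3.63% higher and 4.26% lower. Among CR identity genes, 17 were tested, 3 were higher, 4 were lower and the median log2 ratio was -0.01. The higher ones were Nhlh1, the LIM homeobox gene Lhx1 (145 against 65.7 CPM, log2 1.14) and the chemokine receptor gene Cxcr4 (165 against 102, log2 0.70), which CR neurons use during migration under the meninges. The lower ones were Ndnf (63.2 against 166 CPM, log2 -1.40), the gene of a secreted neurotrophic factor found in layer 1 neurons, Ebf2 itself (16.1 against 40.3, log2 -1.32), the carbonic anhydrase-related gene Car10 (57.1 against 140, log2 -1.29) and Cxcl12, the ligand of Cxcr4 (69.9 against 153, log2 -1.13). Tbr1 (534 against 524 CPM) and Ebf3 (96.8 against 96.1) were close in both sets. Calb2, the gene of calretinin, had 427 and 555 CPM, and Ebf1 102 and 72.9, and neither passed 1.5-fold.

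Of 17 tested genes of the regions where CR neurons arise, 7 were higher and 0 were lower, with a median of 0.54, where 3.63% of all tested genes were higher and 4.26% lower. Of the 7, Pax6 (106 against 43.4 CPM), Dmrt3 (86.0 against 36.3), Dmrta2 (304 against 161), Lhx2 (292 against 181) and Emx1 encode pallial factors. Also higher were Zic5 (76.6 against 50.5) and Wnt5a (42.3 against 22.0), which encodes a secreted ligand. Whether these genes point to 1 origin was not tested. Zic1 (149 against 146 CPM) and Nr2f2 (493 against 459) were close. The hem factor gene Lmx1a, with 45 and 28 UMIs and so under the minimum for testing and named after its values were seen, had 30.2 CPM in members (22.1 to 40.5), 8.68 below 4 (5.77 to 12.5) and 0.521 in the other barcodes. Dbx1, a progenitor factor of the ventral pallium and septum, had no UMI in either CR set.

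Of the p53 family and its targets, 17 genes were tested, 4 were higher and 1 was lower, and the median was 0.48, beside 3.63% higher and 4.26% lower over all tested genes. The higher ones were Trp53 (116 against 74.1 CPM), Mdm2, which encodes the ligase that degrades p53 (102 against 63.3), Phlda3, an inhibitor of Akt (122 against 54.9, log2 1.15), and Dcxr. The lower one was Btg2 (30.9 against 50.9), which is also an immediate early gene. Pro-apoptotic Bax (514 against 398, log2 0.37) and Bbc3 (104 against 74.1, log2 0.48), Ccng1 (log2 0.51), Aen (log2 0.50) and Zmat3 (log2 0.49) were within 1.5-fold. Trp53inp1, with 51 and 35 UMIs and so also under it, had 34.3 CPM (25.5 to 45.1) against 10.9 (7.56 to 15.1). Perp, with 6 and 45 UMIs, went the other way, with 4.03 CPM (1.48 to 8.78) against 14.0 (10.2 to 18.7). Trp63 had 0 UMIs in members and 1 below 4. Among 11 tested genes of apoptosis and survival none passed 1.5-fold in either direction, and their median was 0.17, with the survival gene Bcl2l1 at 163 against 118 CPM (log2 0.47).

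In the cell cycle list 2 of 9 tested genes were higher, Cdk4 (432 against 283 CPM) and the retinoblastoma gene Rb1 (35.6 against 22.9), and 0 were lower, with a median of 0.33. Over all tested genes 3.63% were higher and 4.26% lower. The inhibitors related to Cdkn1a were closer: Cdkn1c had 259 and 207 CPM, and Cdkn1b 53.1 and 40.0. The replication clamp gene Pcna had 50.4 and 51.8 CPM.

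For the Wnt pathway, 8 of 48 listed genes were tested, 2 were higher and 2 were lower. The shares over all tested genes were 3.63% and 4.26%. Among ligands and agonists, the second R-spondin, Rspo2, was higher (50.4 against 17.4 CPM, log2 1.54, 1.02 to 2.06), as was Wnt5a (log2 0.94), while Wnt7b was lower (163 against 342 CPM, log2 -1.07). The antagonist gene Sfrp1 was lower (32.3 against 54.0 CPM). R-spondin receptors were scarce: Lgr4 had 5.38 CPM in members and 4.03 below 4, Lgr5 had 1.34 and 0.310, and Lgr6 had no UMI in members. The ligase genes Znrf3 and Rnf43, whose products R-spondins bind, had 10.8 and 0 CPM in members. Of genes that Wnt signalling commonly induces, Lef1 had 32.9 CPM (24.4 to 43.5) against 8.99 (6.02 to 12.9), whereas Axin2 had 4.71 and 4.65, and both were under the minimum for testing. Ctnnb1, the gene of beta-catenin, had 419 and 383 CPM.

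Of the serpins and their partners 6 were tested. Serpinh1 was higher and Serpini1, which encodes neuroserpin, was lower (39.0 against 71.9 CPM). The thrombin receptor gene F2r (37.6 and 47.1 CPM) and Lrp1, whose product clears serpin complexes (48.4 and 39.7), did not pass 1.5-fold.

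Of 26 tested synaptic and excitability genes, 0 were higher, 4 were lower, 22 were neither, 23 had a ratio below 1 and the median was -0.35. Over all 5875 tested genes, 3.63% were higher, 4.26% were lower and 2994 had a ratio below 1. The 4 lower ones were complexin (Cplx1, 14.1 against 32.2 CPM), Syt4 (72.6 against 123), and the glutamate receptor subunits Gria2 (81.3 against 125) and Grin1 (32.9 against 49.9). Above 25000 UMIs the log2 ratios of Syt4 (0.09), Gria2 (0.23) and Grin1 (0.57) had the other sign. Snap25 (log2 -0.50) and Vamp2 (log2 -0.47) stayed within 1.5-fold. Syn1 (97.5 against 98.0 CPM) was close, and Slc17a6, the vesicular glutamate transporter gene, had 82.7 and 67.3.

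Genes of immature neurons and the cytoskeleton did not stand on 1 side. Of 24 tested, 3 were higher, 0 were lower and the median was -0.03, beside 3.63% higher and 4.26% lower over all tested genes. Besides Igfbpl1 and Neurod1 the higher one was Nnat, a gene of young neurons, with 9802 against 5629 CPM (log2 0.80). Tubulin genes were alike in size (Tubb3 4896 and 4596 CPM, Tuba1a 20629 and 21243), Stmn1 had 6267 and 5838, Sox11 578 and 399.7 (log2 0.53), and the growth cone gene Gap43 1968 and 2666 (log2 -0.44).

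Of 17 tested migration and guidance genes, 3 were higher, 4 were lower and the median was 0.09. The shares over all tested genes were 3.63% and 4.26%. Besides Cxcr4 the higher ones were Sema6a (203 against 126 CPM) and Ephb2 (28.2 against 18.3), and besides Cxcl12 the lower ones were Plxnd1 (30.2 against 53.3), Robo1 (14.8 against 25.4) and the netrin receptor gene Unc5b (35.0 against 54.9). Epha4, under the minimum for testing and named after its values were seen, had 28.9 CPM (20.9 to 38.9) against 5.58 (3.31 to 8.82). Of 4 tested TGF-beta and BMP genes, Id4 was higher (44.4 against 19.8 CPM). Bmp2, likewise under the minimum and named after its values were seen, had 30.2 CPM (22.1 to 40.5) against 5.27 (3.07 to 8.44).

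Of 19 tested immediate early and stress genes, 9 were lower, 2 were higher and the median was -0.30, beside 4.26% lower and 3.63% higher over all tested genes. The lower ones were Nr4a1, Npas4, Jun, Fosb (35.0 against 91.2 CPM), Junb (101 against 256), Egr1 (24.9 against 53.6), Klf6 (59.8 against 108), Btg2 and Fos (598 against 948). The higher ones were Ier5 (280.3 against 129.6) and the endoplasmic reticulum chaperone gene Hspa5 (579 against 351). Heat shock genes (Hspa8 2647 and 2943 CPM, Hsp90aa1 936 and 1039) and Atf4 (210.4 and 210.6) were close. Single barcodes held many of these UMIs: Junb reached 33.2 and Npas4 14.6 per 10000 in the highest of the CR barcodes below 4, against 6.65 and 1.99 in members. Without the CR barcodes highest in immediate early genes, which left 89 members and 116 others, 147 of 5085 tested genes were higher and 171 lower.

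**Figure D4:**
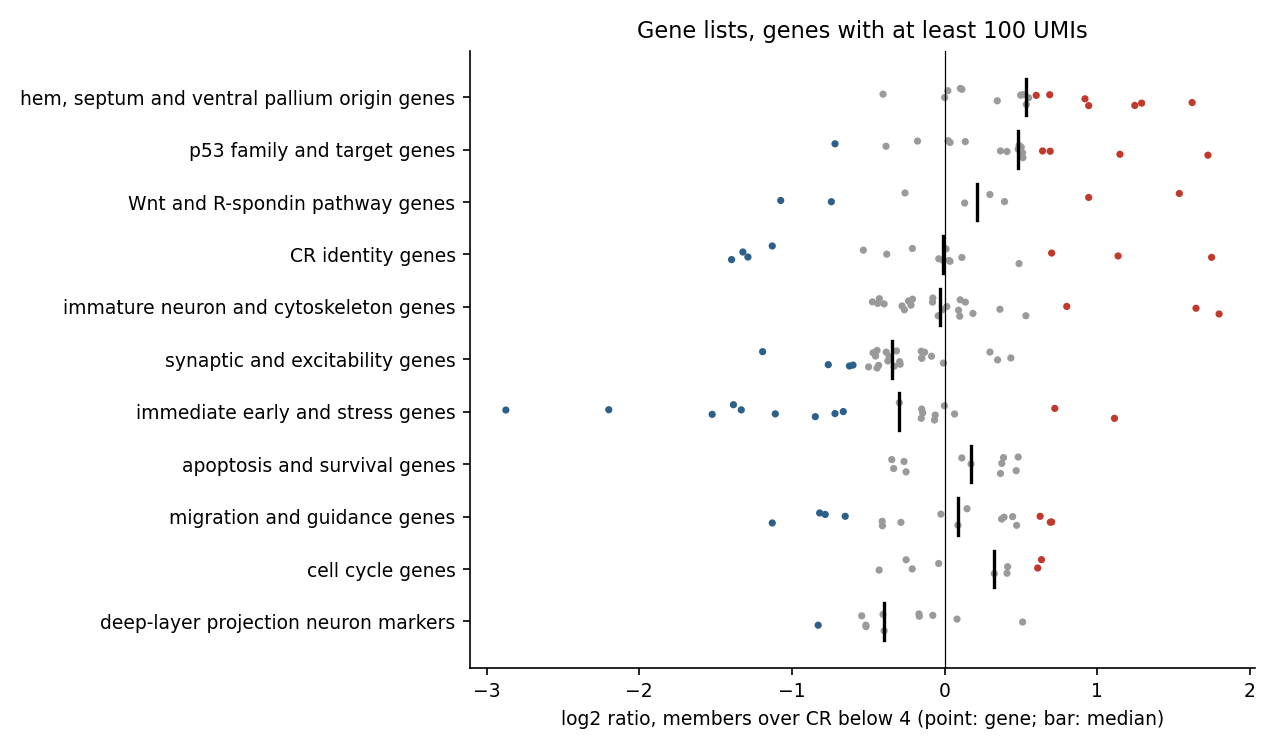
Log2 ratio of members over CR barcodes below 4 (x axis) for the tested genes of 11 lists (y axis). Points are genes (red, at least 1.5-fold higher; blue, at least 1.5-fold lower; grey, neither) and black bars are list medians, which run from 0.54 for genes of CR origins to -0.40 for deep-layer markers.

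Markers of other cells were checked because the sort or a droplet could hold them. Deep-layer projection neuron markers were in every barcode of either CR set, with a summed level of 1962 CPM in members, 1698 below 4 and 6582 in the other barcodes. Of their genes Nfib, a nuclear factor that both CR sets held, had 1396 against 979.6 CPM. The sum and the median differed in sign, since the median log2 ratio of the 11 tested genes was -0.40. Fezf2 had 27.6 and 26.0 CPM against 370.4 in the other barcodes, and 1 of 11 tested genes, Crym, was lower (22.2 against 39.4). Of 3 tested upper-layer markers, Dok5 was lower (36.3 against 65.4). Subplate markers summed to 1271 and 1304 CPM, mostly from Pcp4, and of 2 tested Nxph4 was higher.

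Radial glia and progenitor markers were higher as a sum, 514 against 201 CPM, with 224 in the other barcodes. They ran from 0 through a median of 4.60 to 16.9 per 10000 in members and from 0 through 1.42 to 12.1 below 4. Both genes that could be tested, Vim (303 against 127 CPM) and Pax6 (106 against 43.4), were higher and made up most of the sum in either CR set. Eomes, a factor of intermediate progenitors and newborn neurons, had 45.0 CPM (34.9 to 57.2) against 8.99 (6.02 to 12.9), and the proneural gene Neurog2 24.2 (16.9 to 33.5) against 3.72 (1.92 to 6.50). Of the other listed genes, Sox2 was near 0 at 2.02 and 0.620 CPM, as was Nes at 2.02 and 1.86. Both were named after their values were seen, and the remaining genes of this list are not given here. An Eomes UMI was found in 28.0% of members, 8.33% of CR barcodes below 4 and 2.05% of others after thinning. When barcodes with at least 2 UMIs of Eomes, Neurog2 and Neurod1 together were left out, 56 members and 166 others remained. Of 5307 tested genes, 152 were then higher and 203 lower. The 15 highest genes had been picked on all CR barcodes, including those left here, so their staying high was largely set by that choice. Of them 14 could still be valued, all past 1.5-fold, with a median log2 ratio of 1.40. The part of this newborn neuron signal in the other differences was not tested further.

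The remaining markers were at or near 0. Members held 26 UMIs of 11 interneuron markers, 2 of 10 meningeal fibroblast markers (10 below 4), 14 of 8 endothelial and mural markers, 5 of 8 microglia markers and 11 of 6 choroid plexus markers (1 below 4), and none of these lists had a gene with enough UMIs to be tested. Blood markers stood at 42.3 and 42.5 CPM, against 514 in the other barcodes.

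Levels were also taken along the summed Rspo3, Cdkn1a and Serpine2. In the 5 classes below 1, from 1 to 2, from 2 to 4, from 4 to 8 and at 8 or more per 10000, which held 91, 37, 52, 50 and 43 barcodes, Igfbpl1 had 251, 481, 622, 968 and 1698 CPM. Snhg11 had 615, 447, 313, 149 and 89.4 CPM in the same order, with its widest ratio between neighbours at the limit of 4, and Ndnf 186, 146, 148, 91.7 and 23.9. Jun had 604 and 503 CPM in the lowest classes and 159.1 to 180.0 in the others, so its step lay near 2 and not near 4. Nhlh1 reached 150.02 CPM at 8 or more and 10.5 to 52.3 below that, and Eomes 79.8 against 6.80 to 19.7. Trp73 stayed between 156 and 198 CPM with no order. Reln was 2086 to 2132 CPM in the first 4 classes and 1634 in the highest, whereas Nhlh2 went from 1034 to 1594. The highest class had the lowest median depth, 14108 UMIs.

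**Figure D5:**
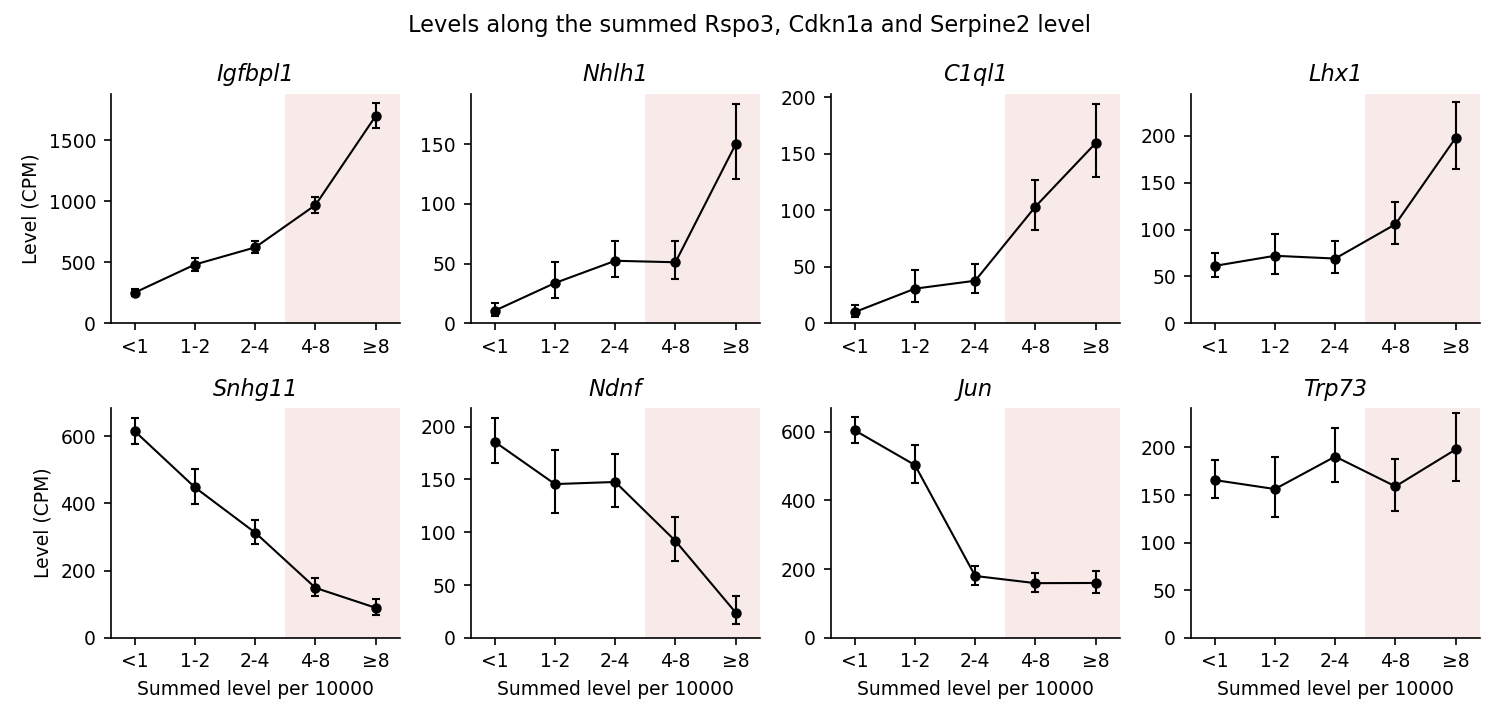
Summed level (y axis, CPM, with exact Poisson 95% intervals) of 8 genes in 5 classes of CR barcodes by their summed Rspo3, Cdkn1a and Serpine2 (x axis, UMIs per 10000). The shaded classes are the members. Igfbpl1 goes from 251 to 1698 CPM and Snhg11 from 615 to 89.4, while Trp73 stays between 156 and 198.

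Members led by Rspo3 and members led by Cdkn1a are set side by side as values. The 74 led by Rspo3 had 174 CPM of Trp73 and 122 of C1ql1, and the 18 led by Cdkn1a had 186 and 128. Of the CR genes, Lhx1 was 144 and 151 CPM, Lhx5 243 (216 to 273) and 170.1 (124 to 228), Ndnf 70.7 (56.5 to 87.3) and 30.9 (13.4 to 61.0), and the gate gene Nhlh2 1495 (1428 to 1566) and 1829 (1668 to 2002). Igfbpl1 was 1177 CPM (1117 to 1240.0) in the former and 1694 (1539 to 1860.0) in the latter, and Snhg11 was 142 (122 to 165) and 42.5 (21.2 to 76.1). Eomes was 31.2 (22.1 to 42.9) and 112 (75.1 to 161). Of the p53 targets, Phlda3 was 104 (87.0 to 124) and 205 (154 to 268). The intervals overlapped for Mdm2, 93.7 (77.3 to 113) and 135 (94.3 to 188), and for Zmat3, 44.4 (33.3 to 57.9) and 85.1 (53.3 to 129). Bax was 506 and 549, and Plk2 went the other way, at 87.9 and 77.3. Rspo2 was 48.5 and 58.0. With 18 barcodes in the smaller set and 1 library these are values without a test.

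The differences were also measured on UMIs that had no part in choosing the barcodes. When members were chosen on a random part of the UMIs, 1 in 2 on average, and measured on the rest, 85 members were compared with 185 barcodes. Rspo3 then had 556 against 107 CPM, Cdkn1a 255 against 57.1 and Serpine2 138 against 22.2. These 3 genes made the choice, and both parts of the UMIs come from the same barcodes, so their gap is a description only. C1ql1 had a log2 ratio of 2.05, Igfbpl1 of 1.54, Nhlh1 of 2.08 and Snhg11 of -1.93, and the 15 highest and 15 lowest genes, which had been picked on all UMIs including these, were past 1.5-fold on the same side. Of 3810 genes tested on these UMIs, 133 were higher and 163 lower.

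Embryos of both sexes were in the library. UMIs of both Xist and Y-linked genes were held by 13 of 93 members, 37 of 180 CR barcodes below 4 and 393 of 2240 other barcodes. Whether these were doublets was not tested, and they are in neither group below. Of the CR barcodes with at least 3 Xist and no Y-linked UMI 42 were members and 92 were not, and of those with a Y-linked and no Xist UMI 31 were members and 35 were not (31.3% and 47.0%). Within the former C1ql1 had a log2 ratio of 2.65 and Snhg11 of -1.92, and within the latter 2.35 and -1.71. The highest and lowest genes, 15 each, had the same sign in both, but they had been picked on all CR barcodes including these. Ramp1 (-2.76 and -0.09) and Cxcl12 (-2.10 and -0.23) lay far apart between the sexes. Egr1 (0.45) and Btg2 (0.40), lower in members over all CR barcodes, had the other sign among Y-linked barcodes. None of these gaps was tested.

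The 202 CR barcodes above 25000 UMIs, which the rule left out, held 12 at or above the limit. Against the other 190, C1ql1 had a log2 ratio of 2.53, Nhlh1 of 2.63, Lhx1 of 1.18, Igfbpl1 of 0.78 and Snhg11 of -0.74. Of the named genes, 14 of the 15 highest and 14 of the 15 lowest kept their side, and 11 and 10 of them passed 1.5-fold. Dcxr (-0.12) and Tmem130 (0.14) were on the other side there. So were 3 of the 4 synaptic genes named as lower, Syt4 (0.09), Gria2 (0.23) and Grin1 (0.57), and also Btg2 (0.37), Egr1 (0.62), Sfrp1 (0.50), Dok5 (0.47) and Ephb2 (-0.31). The medians of the origin list (0.44) and the p53 list (0.33) stayed above 0, and that of the synaptic list was -0.12. The difference in synaptic genes was smaller in these deepest barcodes, of which 12 were members.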

How the data were processed

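Ebf2-EGFP+ cells of E15.5 mouse cortex were captured on the 10x Chromium platform. The authors deposited 1 matrix of UMI counts per gene and barcode (27998 genes, 57180867 UMIs), made from the reads with no further normalization. The submitters' processing notes name Cell Ranger 2.0.0, Seurat 2.0 and the build mm10. The study mentions filtering on multiplets and mitochondrial genes, but the limits are not given in the sources used here. None of the 8 labelled samples could be tied to barcodes, so no test between samples was made. Intervals measure counting error only, and leave out the spread between barcodes and between embryos.

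Deposited counts were summed over the barcodes of each set and divided by the set's total. Intervals are at 95% and exact: Poisson for levels, binomial given the summed UMIs for ratios, and Clopper-Pearson for shares. Genes needed at least 100 UMIs over both sets. A ratio of 1.5-fold was the rule of size. The genes named were the 5 rule genes and the 15 highest and 15 lowest log2 ratios (10 CPM added to both levels) among genes found in at least 20% of the barcodes of the higher set and with no barcode holding over 20% of their UMIs. Of each of 22 gene lists, genes past 1.5-fold and up to 4 further members by level were added, and any member of the p53, Wnt and serpin lists. Other list members in the text (among them Ebf1, Ebf3, Spock1, Ackr3, Emx2, Cacna2d2, Lhx5, Slc17a6, Syn1, Atf4, Bcl2l1, Cdkn1b, Pcna, Dbx1, Eomes, Neurog2, Sox2 and Nes) were named after their values were seen. Some genes of the synaptic list are not reported here. The members and lists were chosen with earlier results of these data known. For shares, each barcode was thinned to 10000 UMIs, and none was shallower. Scrublet's automatic threshold called 2 barcodes, so only its ranking was used, and doublets were kept. Coordinates are from GENCODE M21, in which 27645 gene identifiers were found. The steps were tested on simulated data. Alternatives covered the limit on the 3 genes, the comparison set, the depth limit, the CR gate, doublets, sex, thinning, choice and measurement on separate UMIs, single rule genes, averaging, scaling and the UMI minimum. Python 3.11.15, numpy 2.4.6, scipy 1.17.1, scanpy 1.11.5 and matplotlib 3.10.9 were used.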

Additional observations from a re-analysis of the deposited data

Results flagged for a closer look

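A summed level of Rspo3, Cdkn1a and Serpine2 of at least 4 UMIs per 10000 was also present outside the barcodes compared. In 101 barcodes outside the CR gate (4.51% of the 2240) the 3 genes reached that level, led by Rspo3 in 89, Cdkn1a in 4 and Serpine2 in 8. CR markers were low in them, with Reln at 92.2 CPM (79.3 in the other 2139) and Trp73 at 7.57 (5.56), while the projection neuron gene Neurod6 was at 1439.9 (1309). C1ql1 was at 5.05 CPM (2.18 to 9.95) against 1.55. Above 25000 UMIs, 12 CR barcodes reached the same level.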

How the results depend on the processing

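No paired analysis was possible because the barcodes carry no sample number and there is 1 group. For the same reason no replicate could be left out. The share of CR barcodes that were members was 42.1% with a limit of 3 per 10000, 22.7% with 6, 22.1% with no limit on depth, 41.4% up to 20000 UMIs and 47.0% among Y-linked barcodes. Genes higher and lower numbered 425 and 714 of 8651 tested with no limit on depth, and 65 and 54 of 1987 among Y-linked barcodes. On separate UMIs they numbered 133 and 163 of 3810, and 108 and 152 of 5875 when chosen by Serpine2 alone. They were 455 and 448 with at least 50 UMIs, 57 and 61 with at least 300, and 2542 and 3158 with no minimum. At 2-fold they were 42 and 69, and 444 of 5875 were lower with a limit of 6. The fixed minimum of 100 UMIs also sets how many genes are tested when the sets hold fewer or more UMIs. The alternatives of the UMI minimum and the fold set their counts by construction, and for the others the cause was not tested. Chosen after seeing the data were 3 more alternatives. Above 25000 UMIs alone the share was 5.94%, with 520 of 7498 tested genes higher and 869 lower. Without barcodes with newborn neuron genes the share was 25.2%, and without the barcodes highest in immediate early genes 43.4%. Of 3971 values of 199 named genes under these alternatives, 3307 stayed inside the gene's main counting interval, which is wide at few UMIs. Another 647 moved outside it, and 17 changed sign. A sign change was counted only for genes past 1.5-fold in the main comparison. Others, such as Trp73 (-0.20 among Xist barcodes), fall under the first 2 counts. The sign changed for Ephb2 with no limit on depth (-0.016), for Btg2 (0.40) and Egr1 (0.45) among Y-linked barcodes, for Sfrp1 (0.56), Robo1 (0.037) and Ephb2 (-0.032) when chosen by Serpine2 alone, and for Btg2 (0.68) without the barcodes high in immediate early genes. Above 25000 UMIs it changed for Dcxr (-0.12), Tmem130 (0.14), Btg2 (0.37), Sfrp1 (0.50), Syt4 (0.092), Gria2 (0.23), Grin1 (0.57), Ephb2 (-0.31), Egr1 (0.62) and Dok5 (0.47), and the cell cycle median was -0.11. In these cases too the cause was not tested. Genes under 100 UMIs, such as Lmx1a and Eomes, rest on few molecules.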
